A study of Rattus norvegicus with 84 samples.

Results

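Astrocyte gene transcripts were measured in the hippocampus of rats given a histone deacetylase inhibitor or its vehicle, with or without a water maze session. The genes described are Gfap, Aqp4, Gja1, Gjb6, Slc4a4, Slc1a2, Slc1a3, Aldh1l1, S100b and Glul, 10 in all, chosen by name as genes known for astrocytes. Earlier results of these data were known when the genes were chosen. Their probes were found through the gene symbols of the array's annotation, in which 13337 genes have a named probe. A named probe was found for 8 of the 10 genes, 9 probes in all. Aldh1l1, which encodes a folate enzyme widely used to mark astrocytes, and Glul, which encodes glutamine synthetase, had none and are not analysed here. The second probe of Slc4a4 was detected on 0 of 84 arrays, so each of the 8 genes is described by 1 probe. All 8 passed the filter on dim probes.

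The study used 28 male F344xBN rats aged 7 months, in 4 groups of 7. SAHA is an inhibitor of histone deacetylases and was injected intraperitoneally at 50 mg/kg in DMSO, and the other rats received the DMSO vehicle. The groups were SAHA with a single-session variant of the Morris water maze that the labels call RPC, SAHA in the home cage, vehicle with RPC, and vehicle in the home cage. Labelled CA1, CA3 and DG tissue of each rat was hybridised to Illumina expression arrays, which gives 12 groups of 7 arrays. RPC rats had 8 days of maze training a week earlier and 17 trials beginning 10 min after the injection, then were killed at 90 min. Home cage rats had no training, so the RPC differences below include training as well as the session. Every rat was injected, so no level without an injection is available.

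Astrocytes tile the hippocampus, wrap synapses and send endfeet to blood vessels. They take up glutamate and potassium released by neurons, buffer the pH around synapses and pass ions and metabolites to each other through gap junctions. Neuronal firing loads the extracellular space with potassium and acid. Slc4a4 encodes the electrogenic sodium bicarbonate cotransporter, which moves bicarbonate across the astrocyte membrane. Gja1 and Gjb6 encode the main astrocyte connexins, the subunits of gap junction channels.

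The promoters of Slc4a4 and Gja1 are shown because these were the members that passed the test of the maze session in vehicle rats. The sequences are from RefSeq on build GRCr8, covering 250 bases before to 50 bases after the annotated start. The Slc4a4 window lies at chr14:19468233-19468532 on the minus strand and the Gja1 window at chr20:36302314-36302613 on the plus strand. Both are printed 5′ to 3′ on the gene's strand, and capitals mark a match to a searched motif.
Slc4a4: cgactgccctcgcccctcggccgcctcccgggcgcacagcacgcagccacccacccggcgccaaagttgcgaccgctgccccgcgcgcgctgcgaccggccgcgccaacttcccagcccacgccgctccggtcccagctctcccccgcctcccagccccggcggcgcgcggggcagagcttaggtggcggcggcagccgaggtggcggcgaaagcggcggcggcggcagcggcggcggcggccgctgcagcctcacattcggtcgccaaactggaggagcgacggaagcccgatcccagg
Gja1: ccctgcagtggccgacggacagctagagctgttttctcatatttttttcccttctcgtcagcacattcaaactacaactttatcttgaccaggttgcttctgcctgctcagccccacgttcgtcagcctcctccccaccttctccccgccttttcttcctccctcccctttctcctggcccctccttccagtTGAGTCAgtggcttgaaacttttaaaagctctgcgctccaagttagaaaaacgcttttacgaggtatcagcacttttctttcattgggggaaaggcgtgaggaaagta
The motifs searched on both strands were AP-1 (TGANTCA), STAT (TTCNNNGAA), the cyclic AMP response element CRE (TGACGTCA) and the GC box (GGGCGG). Of 33469 promoter windows, 7.33% held the AP-1 letters, 8.87% the STAT letters, 1.83% the CRE and 33.1% the GC box. With 1 match in these 2 windows, no matches overlapped. The Gja1 window held 1 match, an AP-1 site that starts 58 bases before the start, and the Slc4a4 window held 0. The Slc4a4 window was 78.0% G and C with 47 CG dinucleotides, and the Gja1 window was 50.3% G and C with 10. Over all windows the median was 51.7% G and C and 7 CG dinucleotides. A match is a description of the letters only.

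Arrays detected between 35.35% and 49.98% of the probes at a detection p under 0.01. The 8 members were detected on 84 of 84 arrays, except Aqp4, which was detected on 78. Levels below are log2 values after background correction and quantile normalization, and levels of different probes cannot be set against each other. Differences are on the same log2 scale with their standard error, from limma, and a gene is called when its Benjamini-Hochberg adjusted p, taken over all probes, is under 0.05. Differences on the authors' deposited z-scores are in z-score units instead, so their sizes cannot be set against log2 differences. Correlation with the other arrays of the same region set 8 arrays apart, 5 of them labelled CA3. Neuron markers of the regions went against the CA1 and DG labels. The CA1 pyramidal markers Wfs1 (-3.79 ± 0.19) and Mpped1 (-2.97) were lower in tissue labelled CA1 than in tissue labelled DG, while the granule cell markers Prox1 (1.08) and C1ql2 (2.50) ran the other way. The CA3 marker Nectin3 was higher in tissue labelled CA3, by 1.71 over labelled CA1 and 2.70 over labelled DG. The regions are therefore called by their labels throughout.

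The question put by the RPC contrast is which genes differ after maze experience. In vehicle rats, Slc4a4 and Gja1 rose after RPC in tissue labelled CA1, and the other 6 members had positive differences that did not pass the test. The 2 called members of 8 stand beside 6.44% of all 9919 probes called in either direction in this comparison. The members' median difference was 0.17, against -0.02 over all probes. The members were chosen with the rise of Slc4a4 and Gja1 known, so neither the share nor the median is independent support. Gene levels were read in bulk tissue, in which fewer cells of a type and less RNA per cell cannot be told apart.

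Slc4a4 had a lowest, median and highest level of 8.80, 9.22 and 9.42 in vehicle RPC rats, against 8.17, 8.32 and 9.07 in vehicle home cage rats, in tissue labelled CA1. All 7 RPC arrays lay above the home cage mean and 4 lay above every home cage array. The overlap came from home cage replicate 3, the highest of its group. The difference was 0.64 ± 0.14, with a 95% interval of 0.35 to 0.94 and an adjusted p of 0.00979. Slc4a4 kept this call in 14 of 14 fits that each left out 1 of these arrays. Its difference there was 0.59 to 0.74.

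Gja1 had 13.35, 13.52 and 13.60 in vehicle RPC rats, against 13.23, 13.27 and 13.44 in vehicle home cage rats. The groups overlapped little, with 6 of 7 RPC arrays above every home cage array. The difference was 0.20 ± 0.06 with an adjusted p of 0.0298. Gja1 kept its call in 8 of 14 fits that left out 1 array. It missed the threshold without vehicle RPC replicate 2 (adjusted p = 0.0665), 4 (0.0529) or 6 (0.069), and without vehicle home cage replicate 1 (0.0505), 2 (0.0515) or 7 (0.0576). The call was also lost on the authors' z-scores (0.159), under median scaling (0.373), with no filter on dim probes (0.0599) and with all 84 arrays and the rat as a block (0.0864).

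Gjb6, the other astrocyte connexin, had 11.25, 11.48 and 11.90 in vehicle RPC rats, against 11.11, 11.21 and 11.52 in vehicle home cage rats. Its difference of 0.24 ± 0.08 had an adjusted p of 0.0513, just outside the threshold. RPC replicate 1 held the highest value. That array is among those set apart by correlation, and without such arrays the difference was 0.22 with an adjusted p of 0.0431. The count of called members was then 3, with Slc4a4 (0.67) and Gja1 (0.23) called too.

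Aqp4 encodes the water channel of astrocyte endfeet. It had 8.51, 9.36 and 9.78 in vehicle RPC rats, against 7.12, 8.68 and 8.89 in vehicle home cage rats. In 4 of 7 RPC rats Aqp4 lay above every home cage array, and its difference was 0.83 ± 0.34 (adjusted p = 0.136). Home cage replicate 6, the lowest, is also an array set apart.

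The glutamate transporters and the other two markers had differences of 0.13 or less. Slc1a3 encodes the glial glutamate aspartate transporter and differed by 0.13 (adjusted p = 0.2). Slc1a2 encodes the transporter that clears most synaptic glutamate in the forebrain and differed by 0.05 (0.715). S100b, a calcium-binding protein, differed by 0.10 (0.387). Gfap, the intermediate filament protein of astrocytes, differed by 0.04 (0.741), with 13.15, 13.43 and 13.59 in RPC rats against 13.30, 13.42 and 13.47 in home cage rats.

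**Figure D1:**
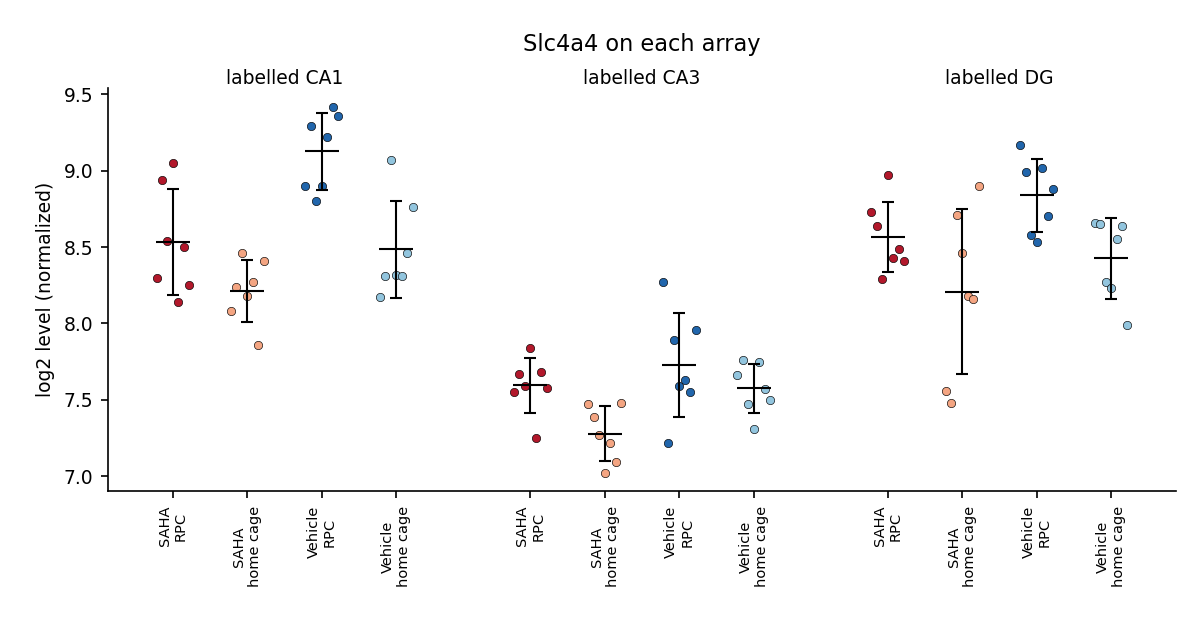
Slc4a4 log2 level on each array, by labelled region, drug and behaviour; points are arrays (7 per group) and bars are the mean ± SD. In tissue labelled CA1 the vehicle RPC arrays, at 8.80 to 9.42, include 4 above every vehicle home cage array.

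**Figure D2:**
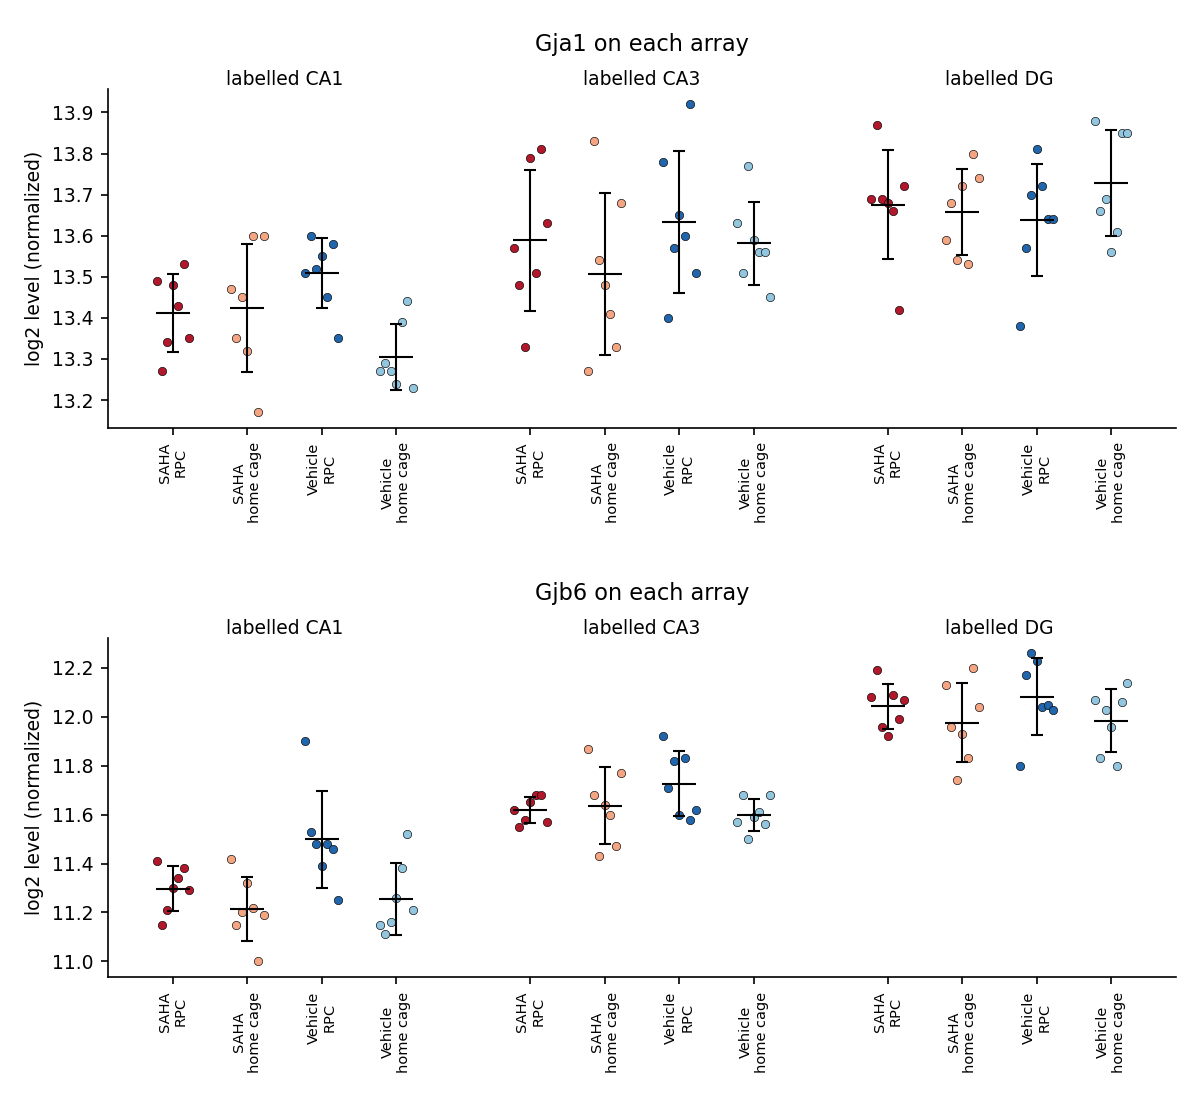
Log2 levels of the connexin genes Gja1 and Gjb6 on each array, by labelled region, drug and behaviour; points are arrays (7 per group) and bars are the mean ± SD. In tissue labelled CA1, 6 of 7 vehicle RPC arrays have Gja1 above every vehicle home cage array.

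Markers of other cells in the same arrays are given for comparison. The summed signal of the oligodendrocyte markers was 7468, 10502 and 22630 (lowest, median, highest) in vehicle RPC rats, against 8375, 9869 and 12550 in vehicle home cage rats. By limma 0 of 11 oligodendrocyte markers were called, with 1 at an unadjusted p under 0.05. Of 12 neuron markers, 0 were called and 2 had such a p. The endothelial sum was 4160 to 5886 in RPC rats, against 4036 to 4425 in home cage rats. The sum over the members was 53333, 56123 and 58973, against 47723, 50595 and 56935. This sum comes mostly from the bright probes of Gfap, S100b, Gja1 and Slc1a3, with mean levels of 13.43 to 13.75 over all arrays. Slc4a4, with a mean level of 8.21, adds little to it. The part of cell makeup in the rise of Slc4a4 and Gja1 was not tested.

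In SAHA rats, 0 of 8 members were called after RPC in tissue labelled CA1, where 2.51% of probes were called by limma. At an unadjusted p under 0.05 there were 2, Slc4a4 and S100b. Slc4a4 had 8.14, 8.50 and 9.05 in SAHA RPC rats, against 7.86, 8.24 and 8.46 in SAHA home cage rats. Again 4 of 7 RPC arrays lay above all home cage arrays, yet the difference was 0.32 ± 0.14 (adjusted p = 0.275). S100b had 13.55, 13.62 and 13.72 in SAHA RPC rats, against 13.17, 13.40 and 13.73 in SAHA home cage rats. Its difference of 0.21 missed the threshold (adjusted p = 0.128), and without SAHA home cage replicate 4 it passed, at 0.26 (adjusted p = 0.0293). Gja1 differed by -0.01 in SAHA rats.

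Whether the maze difference itself depended on the drug was tested as an interaction. In tissue labelled CA1, 0 of 8 members were called by limma beside 0.0101% of probes, and Gja1 alone had an unadjusted p under 0.05. The interaction of Gja1 was -0.21 ± 0.08 (unadjusted p = 0.013, adjusted p = 0.574). That of Slc4a4 was -0.32 (adjusted p = 0.658). The interaction was called for 0 of 8 members in tissue labelled CA3 (0% of probes, 232 at an unadjusted p under 0.05) and in tissue labelled DG (0.00921%). Gfap in labelled CA3 was the only other member with an unadjusted p under 0.05. A loss of the Gja1 or Slc4a4 difference under SAHA was thus not established.

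In tissue labelled DG, 0 of 8 members were called after RPC in vehicle rats (0.322% of probes) and 0 of 8 in SAHA rats (1.45%). In each drug group Slc4a4 was the only member with an unadjusted p under 0.05. Slc4a4 had 8.53, 8.88 and 9.17 in vehicle RPC rats, against 7.99, 8.55 and 8.66 in vehicle home cage rats. Here 5 of 7 RPC arrays stood above every home cage array, with a difference of 0.41 ± 0.17 (adjusted p = 0.478). In SAHA rats Slc4a4 had 8.29, 8.49 and 8.97 after RPC, against 7.48, 8.18 and 8.90 in the home cage. The groups overlapped widely and the difference was 0.36 ± 0.17 (adjusted p = 0.329).

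In tissue labelled CA3, 0 of 8 members were called in vehicle rats (0.0189% of probes) and 0 of 8 in SAHA rats (0.0283%). Slc4a4 had 7.25, 7.59 and 7.84 in SAHA RPC rats, against 7.02, 7.27 and 7.48 in SAHA home cage rats. In 6 of 7 SAHA RPC rats it lay above every SAHA home cage array, with a difference of 0.32 (adjusted p = 0.999). In vehicle rats Slc4a4 differed by 0.15. In the same rats S100b differed by -0.27 (adjusted p = 0.247) and Aqp4 by -0.62 (0.494). With all 84 arrays and the rat, matched by replicate number, as a random block, the S100b difference, again -0.27, passed (adjusted p = 0.0277). The lowest S100b levels among these vehicle RPC arrays were 12.33, 12.73 and 12.61. They came from replicates 3, 4 and 6, which stand apart by correlation. Replicate 1, which does not stand apart, had 12.76, also below every vehicle home cage array of labelled CA3. The rat block was not fitted without the arrays that stand apart, so their part in this call was not tested. In labelled CA3, Aqp4 was detected on 8 of 14 RPC arrays and on 14 of 14 home cage arrays. Of the 5 labelled CA3 arrays that stand apart, all of them RPC, 1 detected Aqp4, at levels of 5.47 to 6.13, while 21 of the other 23 did. Without the arrays that stand apart, the Aqp4 difference in vehicle rats was 0.29, the opposite sign.

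Slc4a4 differed in the positive direction in all 6 RPC contrasts, which led to averages over the 2 drugs being added after the data were seen. The regions of a drug group come from the same rats, so these contrasts are not independent of each other. Averaged over drugs in tissue labelled CA1, Slc4a4 rose by 0.48 ± 0.10 after RPC (means 8.83 and 8.35, adjusted p = 0.00269). It kept this call in 28 of 28 fits that left out 1 array. Gjb6 rose by 0.16 ± 0.05 (adjusted p = 0.0423) and S100b by 0.15 ± 0.05 (0.0394), so 3 of 8 members were called beside 13.7% of probes. Gjb6 kept the call in 9 of 28 fits that left out 1 array, and S100b in 11 of 28. Under median scaling, or with no filter on dim probes, Slc4a4 alone of these stayed past the threshold. S100b also lost its call with the rat as a random block (adjusted p = 0.115), on the authors' z-scores (0.105) and without the arrays that stand apart (0.0777). Without those arrays Gja1 (0.12, adjusted p = 0.0399) and Slc1a3 (0.14, 0.0251) passed, so that 4 members were called. Gja1 averaged 0.10 (adjusted p = 0.103). In tissue labelled DG, where 4.05% of probes were called, the average of Slc4a4 was 0.38 ± 0.12 (adjusted p = 0.0622). It passed without SAHA home cage replicate 3 (0.43, adjusted p = 0.0351) or 7 (0.44, 0.015). In tissue labelled CA3, where 0.123% of probes were called, the Slc4a4 average was 0.24 ± 0.09 (adjusted p = 0.181). Limma called 0 of 8 members on average in DG, with Slc4a4 and Gfap at an unadjusted p under 0.05, and 0 of 8 in CA3, with Slc4a4 alone.

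Whether the maze difference varied among the labelled regions was tested by an F test over all 84 arrays, which treats the arrays of a rat as independent. In vehicle rats 0 of 8 members were called beside 5.52% of probes, with Gja1 (adjusted p = 0.106) and S100b (0.101) at an unadjusted p under 0.05 and Slc4a4 at an adjusted p of 0.236. In SAHA rats 0 of 8 were called beside 0.0438%, and 0 had an unadjusted p under 0.05. The rise of Slc4a4 was therefore not shown to be particular to tissue labelled CA1.

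**Figure D3:**
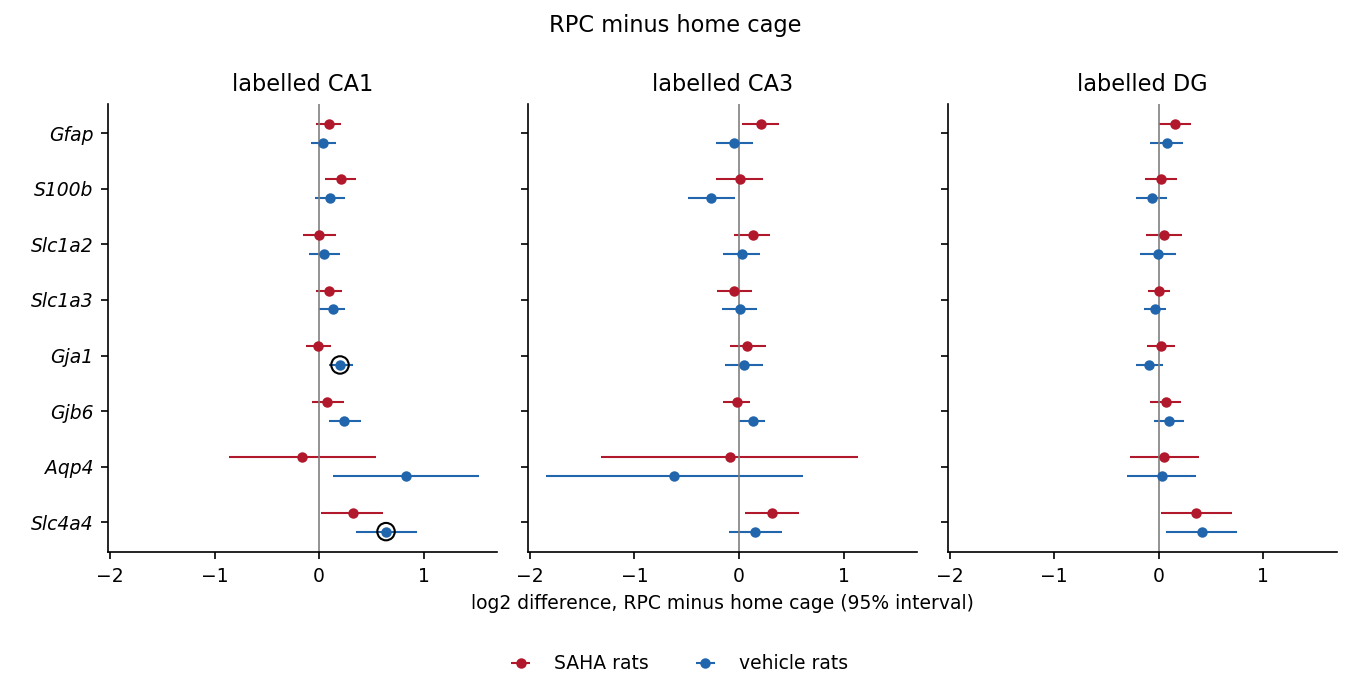
RPC minus home cage log2 difference of each of the 8 genes with its 95% interval, by labelled region, in SAHA rats (red) and vehicle rats (blue); a black circle marks an adjusted p under 0.05. Slc4a4 lies above 0 in all 6 contrasts, and the called members are Slc4a4 (0.64) and Gja1 (0.20) in vehicle rats, labelled CA1.

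The drug contrast asks which genes differed 90 min after SAHA. No member was called in any of 6 SAHA contrasts. The nearest to the threshold was Slc4a4 in RPC rats, tissue labelled CA1, where 0.0605% of probes were called. It had 8.14, 8.50 and 9.05 in SAHA RPC rats, against 8.80, 9.22 and 9.42 in vehicle RPC rats. In 5 of 7 SAHA rats Slc4a4 lay below every vehicle array. The difference was -0.59 ± 0.14 with a 95% interval of -0.89 to -0.30, and the adjusted p was 0.13. Without vehicle RPC replicate 3, the lowest of its group, the difference was -0.65 and passed (adjusted p = 0.0343), and with array weights it was -0.67 (0.0253).

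These vehicle RPC arrays are also the top group of the maze contrast described above, so the 2 differences of Slc4a4 share 7 arrays and are not independent of each other. In the same RPC rats Gjb6 differed by -0.20 (adjusted p = 0.323), Aqp4 by -0.60 (0.547) and Gja1 by -0.10 (0.565). In labelled CA1 of RPC rats, 7 of 8 members had negative differences, with a median of -0.11 against 0.02 over all probes. Slc4a4 and Gjb6 had an unadjusted p under 0.05. The summed signal of 6 endothelial markers was 3609 to 4106 in SAHA RPC rats, against 4160 to 5886 in vehicle RPC rats. Of the 5 endothelial markers tested in labelled CA1, 1 fell, the tight junction gene Cldn5 (-0.36 ± 0.07, adjusted p = 0.0369). It was among the 6 probes called in this contrast. The others were not called and went both ways, with Esam at -0.26, Emcn at -0.03, Tek at 0.08 and Tie1 at 0.30. Of 10 microglia markers limma called 0, with 1 at an unadjusted p under 0.05, the purine receptor gene P2ry12 (-0.37 ± 0.10, adjusted p = 0.165). The part of these cells in the Slc4a4 difference was not tested.

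In home cage rats, tissue labelled CA1, 0.0101% of probes were called and Slc4a4 differed by -0.27 ± 0.14 (adjusted p = 0.762). Tissue labelled CA3 had 0.00944% of probes called in home cage rats, where Slc4a4 differed by -0.30 (adjusted p = 1) with 4 of 7 SAHA arrays below every vehicle array. In RPC rats, labelled CA3, 0% of probes were called, with 538 at an unadjusted p under 0.05, and Slc4a4 differed by -0.13 (adjusted p = 0.649). In labelled DG, 0.0276% of probes were called in home cage rats, where Slc4a4 differed by -0.22 (adjusted p = 0.914). In RPC rats of labelled DG, 0.0829% were called and Slc4a4 differed by -0.27 (0.874). Its 6 drug differences were all negative, though the regions came from the same rats and are not independent. In these 5 contrasts an unadjusted p under 0.05 was found for Slc4a4 in home cage CA3 and S100b in RPC CA3, and for no other member.

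Averaged over behaviours, the SAHA difference of Slc4a4 in tissue labelled CA1 was -0.43 ± 0.10 (adjusted p = 0.0819), beside 0.0907% of probes called. It was -0.22 (adjusted p = 0.956) in labelled CA3, beside 0.00944%, and -0.25 (adjusted p = 0.47) in labelled DG, beside 0.718%. The labelled CA1 average of Slc4a4 passed with all 84 arrays and the rat as a random block (-0.43, adjusted p = 0.0493) and with array weights (-0.49, 0.0196). The fits by region called 0 of 8 members in each of these averages. Slc4a4 had an unadjusted p under 0.05 in all 3 regions and Gjb6 in labelled CA1.

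**Figure D4:**
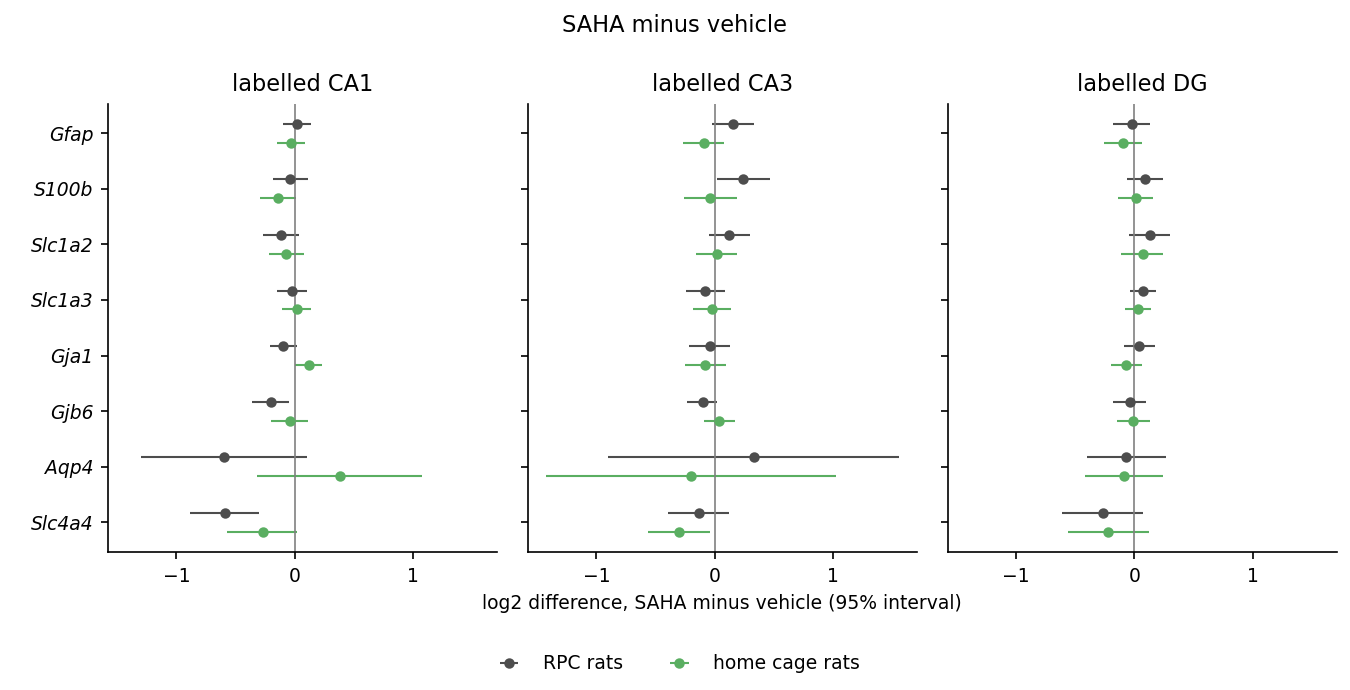
SAHA minus vehicle log2 difference of each of the 8 genes with its 95% interval, by labelled region, in RPC rats (grey) and home cage rats (green); a black circle would mark an adjusted p under 0.05, and there is none. The largest Slc4a4 difference is -0.59, in RPC rats, labelled CA1.

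The labelled regions differed far more than the drug or behaviour groups. Region took between 39% (Gja1) and 80.3% (Gjb6) of the variance of a member over the 84 arrays. For Slc4a4 it took 62.4%, behaviour 9.3% and drug 6.2%. The region contrasts averaged over the 4 groups, with 28 arrays for each region and the arrays of a rat treated as independent. Most probes differed between regions (72.4% called in labelled CA1 against DG, 80.7% in CA3 against CA1, 75.4% in CA3 against DG), so a call alone says little here and the sizes are given.

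Slc4a4 was low in tissue labelled CA3. It had a lowest, median and highest level of 7.02, 7.56 and 8.27 there, against 7.86, 8.46 and 9.42 in labelled CA1 and 7.48, 8.56 and 9.17 in labelled DG. In 25 of 28 labelled CA3 arrays Slc4a4 lay below every labelled CA1 array. The difference was -1.04 ± 0.08 against labelled CA1, 0.48 times its level (adjusted p = 3.44e-21), and -0.96 ± 0.08 against labelled DG (3.62e-19). Labelled CA1 and DG, neighbours in this order, differed by 0.08, which did not pass (adjusted p = 0.352).

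Aqp4 varied most. It had 5.47, 7.30 and 8.94 in labelled CA3, 6.75, 8.86 and 9.78 in labelled CA1, and 9.27, 10.08 and 10.48 in labelled DG. All 28 labelled CA3 arrays lay below every labelled DG array, with a fitted difference of -2.77 ± 0.21 (adjusted p = 7.85e-20). Aqp4 was not detected on 6 of these 28 labelled CA3 arrays, so the size of its differences from labelled CA3 rests partly on values not above background. Labelled CA1 was lower than labelled DG by a difference of -1.28 ± 0.21, and labelled CA3 than labelled CA1 by -1.49 ± 0.21.

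Both connexins had their lowest mean in labelled CA1 and their highest in labelled DG, with a wider spread between regions for Gjb6. Gjb6 averaged 11.64 ± 0.12 in labelled CA3, 11.32 ± 0.18 in labelled CA1 and 12.02 ± 0.14 in labelled DG (SD, n = 28 each). In 27 of 28 labelled CA1 arrays Gjb6 lay under every labelled DG array, a difference of -0.71 ± 0.04. Gja1 averaged 13.58 ± 0.16, 13.41 ± 0.13 and 13.67 ± 0.12 in labelled CA3, CA1 and DG, and spanned at most 0.26 between regions. Its difference between labelled CA3 and DG was -0.10 (adjusted p = 0.0121), and 0.18 relative to all probes under median scaling, so its direction there was not stable. On the authors' z-scores Gja1 was instead higher in labelled CA1 than in DG (0.07, adjusted p = 0.0147). Labelled CA3 was then lower than labelled CA1 (-0.11, adjusted p = 1.04e-04), so its low place in labelled CA1 was not stable either.

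Of the glutamate transporters, Slc1a2 was 10.28 ± 0.17 in labelled DG, with 9.76 ± 0.14 in labelled CA1 and 9.93 ± 0.16 in labelled CA3. Its difference was -0.51 between labelled CA1 and DG, where 27 of 28 labelled CA1 arrays lay under every labelled DG array. Slc1a3 instead was lower in labelled CA3 (13.60 ± 0.15) than in labelled CA1 (13.84 ± 0.13) and DG (13.80 ± 0.10). Labelled CA1 and DG did not differ past the threshold for Slc1a3 (0.04, adjusted p = 0.342), but on the authors' z-scores labelled CA1 was higher (0.27, adjusted p = 6.38e-13). Its difference between labelled CA3 and DG, -0.20, turned to 0.08 relative to all probes under median scaling.

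S100b and Gfap had one order, lowest in labelled CA3 and highest in labelled DG. S100b averaged 13.04 ± 0.23, 13.57 ± 0.16 and 13.81 ± 0.14 in labelled CA3, CA1 and DG. All 28 labelled CA3 arrays lay below every labelled DG array, with a difference of -0.77 ± 0.04 (adjusted p = 2.44e-26). Gfap averaged 13.22 ± 0.17, 13.42 ± 0.11 and 13.65 ± 0.16, and its difference between labelled CA3 and DG was -0.42. For labelled CA1 against DG, Gfap (-0.23), S100b (-0.24) and Gja1 (-0.26) were lower, but on the authors' z-scores all of these turned positive.

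In labelled CA1 against DG, 6 of 8 members were lower and 0 were higher (median -0.25, against 0.00 over all probes). In labelled CA3 against CA1, 5 were lower and 3 higher. In labelled CA3 against DG, 8 of 8 were lower (median -0.40, against 0.02 over all probes). With median scaling, under which all probes had a median of 0.20 in this contrast, Gfap, Gja1, Gjb6, Slc1a2 and Slc1a3 had positive differences, and Gja1 and Slc1a3 stayed positive relative to all probes. Other cell types differed as well. The summed oligodendrocyte markers were 17981 to 46780 in labelled CA3, 7468 to 22630 in labelled CA1 and 19740 to 41572 in labelled DG. The summed choroid plexus markers were 231 to 12407, 56 to 276 and 88 to 533. Median sums of endothelial markers were 3537, 4039 and 6174 in labelled CA3, CA1 and DG, and those of microglia markers 13151, 11599 and 15702. These were highest in labelled DG, as was the median sum of the members (47567, 52548 and 61729). The median sum of neuron markers was highest in labelled CA3 (70355, 49702 and 54152). The part of cell makeup and of dissection in the region differences was not tested.

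**Figure D5:**
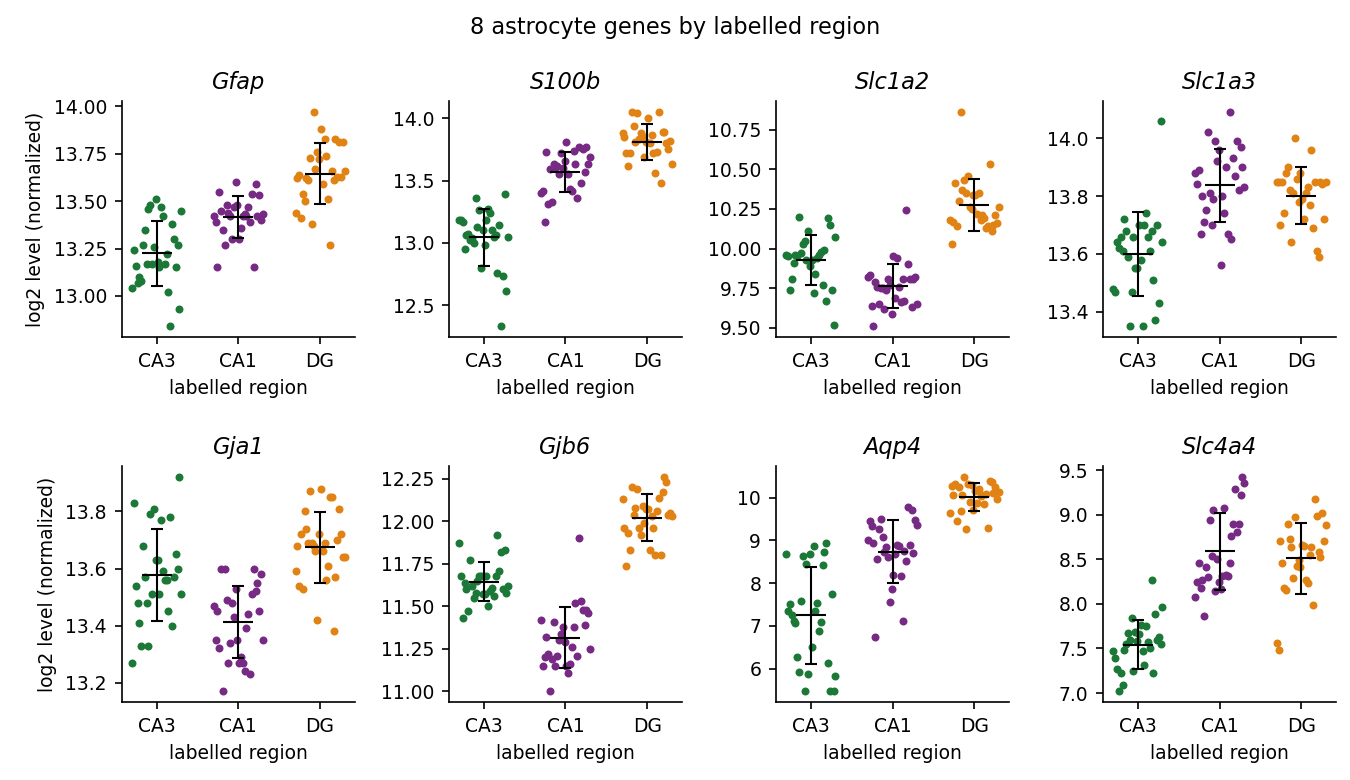
Log2 level of each of the 8 genes on every array, by labelled region (CA3, CA1, DG; 28 arrays each, all drug and behaviour groups together); bars are the mean ± SD. Each panel has its own axis, which does not start at 0, and Slc4a4 is lowest in labelled CA3 (7.54 ± 0.27).

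Most other genes known for astrocytes were not called where Slc4a4 and Gja1 rose. In vehicle rats, labelled CA1, 2 of 30 other astrocyte genes rose after RPC and 0 fell, with a median of 0.04, beside 6.44% of all probes called. They were Ttyh1, a membrane protein of the tweety family (0.24 ± 0.05, adjusted p = 0.00761), and Mertk, a receptor kinase used in phagocytosis (0.32 ± 0.10, 0.0495). Of 18 genes of the glutamate and glutamine cycle and ion homeostasis, 0 rose and 1 fell, Slc38a3, which encodes a glutamine transporter (-0.51 ± 0.15, adjusted p = 0.035). Of 8 genes known from reactive astrocytes, 2 rose. They were Vim, an intermediate filament protein also made by endothelial cells (0.54 ± 0.10, adjusted p = 0.00261), and Hspb1, a small heat shock protein (0.55 ± 0.12, 0.00758). For the other astrocyte genes and the glutamate and ion genes the called share was near that of all probes.

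Correlations among the members inside the groups took different values by region, and a difference between regions was not tested. With group means removed, the 28 pairs of members had correlations over 84 arrays between -0.31 and 0.40, with a median of 0.01, and 14 were positive. Gja1 and Gjb6 had 0.37 over all arrays, with values by labelled region of 0.51 (CA1), -0.02 (CA3) and 0.68 (DG). In labelled DG alone the highest were Gjb6 and S100b (0.77), this connexin pair, Gja1 and S100b (0.66), and Slc4a4 and Slc1a2 (0.61). Gja1 and S100b had -0.31 in labelled CA1, -0.30 in labelled CA3 and -0.04 over all arrays. Gja1 and Slc4a4 had 0.08. Gfap and S100b had 0.40, and Slc4a4 and S100b had -0.31. All probes of an array share its labelling, hybridisation and normalization, so these values are descriptions. By the same measure the genes most like Slc4a4 were Grin2a (0.71), Prkg1 (0.70) and Gria3 (0.70). Those most like Gja1 were Zfp386 (0.81), Ppp4r2 (0.80) and Naa15 (0.79), and those most like the mean of the members were Krcc1 (0.65), Maob (0.61), Spop (0.60), Rdx (0.59) and Abhd3 (0.56).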

How the data were processed

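Per the submitters' processing notes, arrays were read in GenomeStudio 2011.1. The deposited table holds signal intensity (36 to 41948) and a detection p-value for 22523 probes on 84 arrays. A second deposited table holds scores, z-scores of the log intensity per array; recomputed values from the deposited intensity differed by at most 0.01302. Of the detection p-values 29.84% were exactly 0.01 although the others reached down to 0.0012, and the values at 0.01 were read as 0.

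Intensities were background corrected by normexp with the detection p-values (offset 16), taken as log2 and quantile normalized over 84 arrays, with limma 3.58.1 in R 4.3.3. Probes detected at p under 0.01 on at least 7 arrays were kept: 9919 in labelled CA1, 10594 in CA3, 10858 in DG and 11403 over all arrays. Linear models with trended empirical Bayes were fitted to the 4 groups of each region, and to all 12 groups for the region contrasts and the F tests. Array number limits the precision. No slide or batch is named in the labels. In the fits by region, p-values measure the spread between rats of a group. For the region contrasts and the F tests they rest on the spread between arrays, pooled over the 12 groups. Those fits had no block for the rat, so the link between regions taken from the same animal was left out.

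Gene symbols came from the platform annotation, in which 13793 probes have 1 symbol, 0 several and 8730 none. The members and the gene lists were chosen with earlier results of these data known, among them the rise of Slc4a4 and Gja1, so neither is independent support. All measured members are named; of other lists, called genes by p-value (at most 6), and likeness is Pearson correlation with group means removed. The scripts were tested on simulated data. Alternatives were median scaling, the deposited z-scores, signal without background correction, other filters, array weights, a replicate block, leaving out arrays that stand apart, all arrays with the rat as a random block, and leaving out each array. The averages over drugs or behaviours were added after seeing the data.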

Additional observations from a re-analysis of the deposited data

Results flagged for a closer look

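Of 96 combinations of a member and a group, 6 held an array that lay farther from the other 6 than Dixon's 95% limit for 7 values allows. Chance gives such a value in about 1 in 20 groups. Of the 6 values, 3 came from arrays that also stood apart by correlation. Aqp4 was low, at 6.75 in SAHA home cage replicate 5, labelled CA1, where the next value was 8.57. It was also low at 7.12 in vehicle home cage replicate 6, labelled CA1 (next 8.17), and at 9.29 in vehicle RPC replicate 1, labelled DG (next 9.96). Gjb6 was high at 11.90 in vehicle RPC replicate 1, labelled CA1 (next 11.53). Slc1a2 was high at 10.53 in vehicle RPC replicate 2, labelled DG (next 10.26). Slc1a3 was low at 13.35 in vehicle home cage replicate 3, labelled CA3 (next 13.58).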

How the results depend on the processing

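Of 1820 values recomputed under the alternative settings, 12 lost a call and 19 gained one. A further 13 changed sign with a call in the main fit, the alternative or both. The other 1776 kept their side of the threshold, among them 64 sign changes where neither value was called. Of 3360 values from fits without 1 array, 3310 kept their side of the threshold, 42 lost a call and 8 gained one. The 3310 also include sign changes where neither value was called. Slc4a4 in vehicle rats, labelled CA1, kept its call under all 9 settings (adjusted p 0.00543 to 0.0196). There the count of called members, 2, was 1 with z-scores, median scaling or no filter, 4 with array weights, and 1 to 3 with an array left out. Of all probes 639 were called, against 413 with z-scores, 124 with median scaling, 352 with no filter and 1373 with array weights. Same-numbered replicates did not vary together; with a replicate block 610 probes were called and Gjb6 passed (0.24, adjusted p = 0.0473). Averaged over drugs in labelled CA1, 3 members became 1 with median scaling or no filter, 2 with z-scores or the rat block (S100b lost), 4 with array weights (Gja1 gained), 4 without the arrays that stand apart (S100b lost, Gja1 and Slc1a3 gained), and 1 to 4 with an array left out. With array weights 0 became 1 in SAHA rats after RPC, in SAHA against vehicle RPC rats and in the SAHA average (all labelled CA1), and in the RPC averages of labelled CA3 and DG, while 0 became 2 in the F test of vehicle rats. With an array left out, the counts in SAHA rats after RPC, in SAHA against vehicle RPC rats (labelled CA1) and in the RPC average of labelled DG were 0 to 1. With the rat as a random block 0 became 1 in the SAHA average of labelled CA1 (Slc4a4) and in vehicle rats after RPC in labelled CA3 (S100b). Median scaling put the median of all probes at -0.19 (labelled CA1 against DG), 0.38 (CA3 against CA1) and 0.20 (CA3 against DG), and left 5 of 8 members called in CA3 against DG. It turned Slc4a4 to -0.20 (CA1 against DG), Gfap to 0.34, S100b to 0.00 and Slc1a3 to 0.23 (CA3 against CA1), and Gfap to 0.08, Gja1 to 0.38, Gjb6 to 0.11, Slc1a2 to 0.01 and Slc1a3 to 0.28 (CA3 against DG). Z-scores turned Gfap to 0.08, Gja1 to 0.07 and S100b to 0.09 (CA1 against DG), where Slc1a3 passed at 0.27, and Gja1 to -0.11 (CA3 against CA1). The causes of these changes were not tested. Median scaling shifts all probes of an array together. Relative to the median of all probes, Gja1 (0.18) and Slc1a3 (0.08) were still positive under median scaling in CA3 against DG. Aqp4 in labelled CA3 lies near background.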

Other observations

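In SAHA rats, labelled CA1, Vim (0.51, adjusted p = 0.0047) and Hspb1 (0.45, 0.0324) rose after RPC, as 2 of 8 genes known from reactive astrocytes, beside 2.51% of all probes called, while Prdx6, a peroxiredoxin, was the only one called of 30 other astrocyte genes and fell (-0.17, adjusted p = 0.0389). Averaged over drugs in labelled CA1, 2 of 30 other astrocyte genes rose, Ttyh1 (0.18) and S1pr1, a sphingosine 1-phosphate receptor (0.46). In the same average 2 fell, Prdx6 (-0.12) and Atp1b2, a sodium pump subunit (-0.26), so the 4 called of 30 stand beside 13.7% of all probes. Of 18 genes of the glutamate and glutamine cycle and ion homeostasis 3 fell there, Atp1b2, Glud1, which encodes glutamate dehydrogenase (-0.16), and Slc38a3 (-0.32). Averaged over drugs in labelled DG, Cbs, an enzyme of cysteine synthesis, rose by 0.17 and Mt3, a brain metallothionein, fell (-0.11), 2 called of 30 beside 4.05% of all probes.

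Between regions, in labelled CA3 against CA1, 11 of 14 genes known from reactive astrocytes were higher, among them Nes, an intermediate filament protein (1.37), Vim (1.02) and Gbp2, an interferon-induced GTPase (1.00), and 1 was lower. In the same contrast 11 of 12 oligodendrocyte markers were higher, with a median of 1.54. Of all probes 80.7% were called in this contrast and 40.8% were higher.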
